A study of Mus musculus with 6 samples.

Results

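The genes described here lie on distal mouse chromosome 19, with starts between 38 and 57 Mb on GRCm38 (GENCODE M21). The same chromosome carries Smarca2, the gene targeted in these mice, at 26605050 to 26778322 on the plus strand, so every gene described lies more than 11 Mb beyond it. Of 358 annotated genes starting in the interval, 145 had at least 10 reads in at least 3 of 6 libraries and are the members; 205 had fewer reads, of which 132 had none, and 8 were left out by name, among them Dntt and Hells. The files list 55487 genes, and 15829 of these meet the same count rule. Members were chosen by position and read number, but the interval itself was selected on the BrmKO against WT differences of its genes, so those differences are given as a description.

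The libraries were made from bone marrow LSK cells, sorted as negative for lineage markers and positive for KIT and SCA1, a gate that holds blood stem cells and early progenitors. There were 3 libraries from wild-type mice (WT) and 3 from Brm-/- mice (BrmKO), all labelled with the strain background C56Bl/6 and given no treatment in the labels. Neither age, sex and litter nor the construction of the Brm allele is stated in the labels. Polyadenylated RNA was amplified with the SMART-Seq v4 kit, and reads were counted per gene. Gene counts hold no sequence, so BRM loss and any other genetic difference between both groups of mice cannot be told apart.

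BRM, the protein made from Smarca2, is an ATPase of SWI/SNF (BAF) complexes, which move nucleosomes and open chromatin, and its close relative BRG1 can drive the same complexes. Neighbouring genes on a chromosome can share regulatory elements and can overlap, and a chromosome segment around an engineered gene is inherited together with it. The interval holds genes of many unrelated functions, including cilium proteins, lysosome-related organelle subunits, immune adaptors, ion channels and enzymes of lipid synthesis.

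Smarca2 itself had 6284, 6932 and 4270 reads in WT replicates 1 to 3 and 805, 761 and 958 in BrmKO replicates 1 to 3. Its level in CPM (reads scaled by library size, with TMM factors) was 179 ± 31.9 in WT and 27.1 ± 0.691 in BrmKO (SD, n = 3 each), which is 15.1% of WT. Library depth was 28013994 to 36457027 reads in genes, and 3 reads, taken as the limit of detection, correspond to 0.0828 to 0.105 CPM. The third libraries of both groups had the largest shares of reads outside genes, 8.41% and 9.29% against 5.79% to 6.61% in the other libraries. Summed markers of the LSK gate (Kit, Ly6a, Cd34 and 6 others) lay between 3857 and 4079 CPM in WT and between 3897 and 4184 in BrmKO, and 0 of 9 passed the test. In these bulk samples fewer cells of a type and less RNA per cell cannot be told apart.

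Few of the 145 genes passed the test over the whole table, but an unadjusted p under 0.05 was more frequent among them than among all genes. In edgeR's quasi-likelihood test with Benjamini-Hochberg adjustment over 15691 genes, 22 genes (0.14%) had an adjusted p under 0.05, and 3 of them were members. Pkd2l1 rose, and Mfsd13a and Arl3 fell. The share called in each direction over all genes was 0.0829% higher and 0.0574% lower. At an unadjusted p under 0.05, 30 of the 145 members (20.7%) stood against 918 of all genes (5.85%), 16 higher (all genes 3.14%) and 14 lower (all genes 2.71%) in BrmKO. In 38 members (26.2%) the 3 BrmKO libraries all lay above or all below the 3 WT libraries, against 11.1% of all genes. Of these, 22 were higher (all genes 5.69%) and 16 lower (all genes 5.37%).

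The differences went in both directions, and the middle of the interval's values lay where that of all genes did. The median log2 fold change of the members was -0.01, and so was that of all genes, with 71 members above 0 and 74 below. The median size of the change, without its sign, was 0.17 on the log2 scale in the members and 0.12 in all genes. Changes of at least 1 on the log2 scale were found in 19 members (13.1%), against 4.37% of all genes. Among protein-coding members 25 of 123 (20.3%) had an unadjusted p under 0.05, against 6.25% of all coding genes tested. The corresponding count was 5 of 22 (22.7%) for members that do not code for protein, against 4.04%.

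The larger stretches used for comparison had lower shares of such genes, while single windows of chromosome 19 outside the interval did not always. On the rest of chromosome 19, with Smarca2 left out, 28 of 387 genes (7.24%) had an unadjusted p under 0.05, 0 passed the adjusted threshold and 47 (12.1%) had groups that did not overlap. Of the 22 tested genes beyond 57 Mb, 2 had an unadjusted p under 0.05. On a stretch of chromosome 3 that ends at 97 Mb and holds 211 tested genes, 19 (9.0%) had an unadjusted p under 0.05. Of these 211 genes, 35 (16.6%) had groups that did not overlap, and 0 were called. Both shares were themselves above those of all genes, 5.85% and 11.1%. How this stretch was chosen is not stated, so it is not taken as a neutral background. By whole chromosome the share at an unadjusted p under 0.05 was 10.9% on chromosome 19 and lay between 4.51% (chromosome 9) and 7.84% (chromosome 3) on the others. Of the windows of 1 Mb outside the interval, that from 11 Mb held 0 higher and 4 lower of 16 genes, that from 23 Mb 1 higher and 2 lower of 7, and that from 34 Mb 3 higher and 0 lower of 12. No test of these shares was made, because the interval had been chosen for them.

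**Figure D1:**
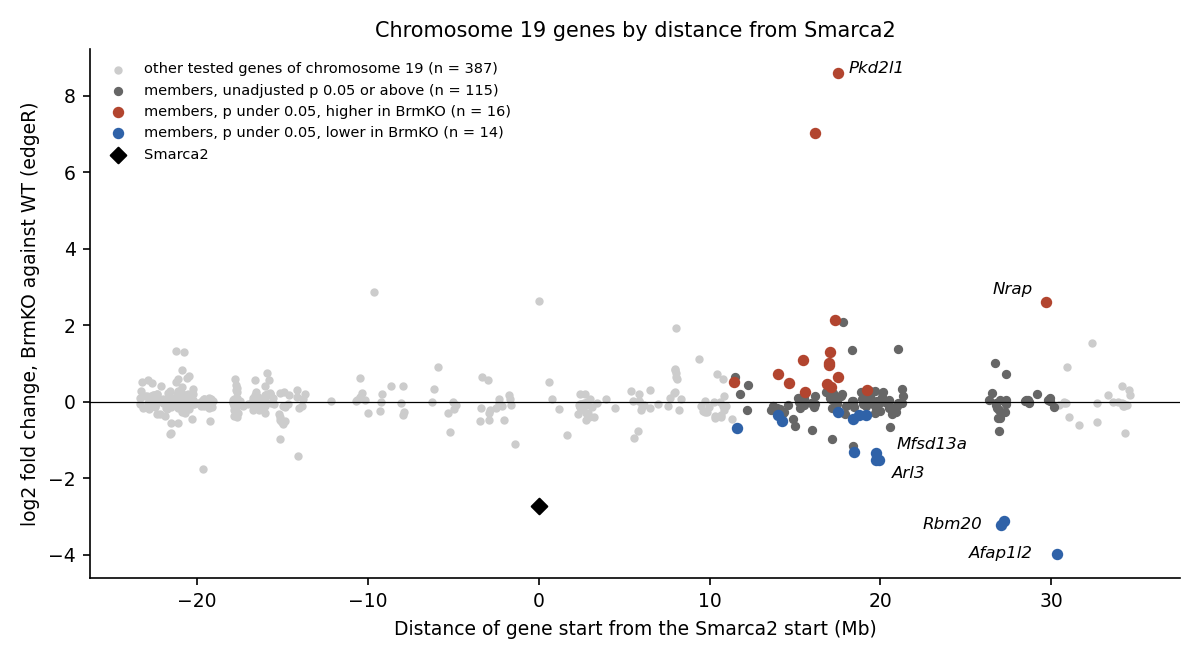
Log2 fold change of BrmKO against WT (y axis) for each of the 145 members by the distance of its start from that of Smarca2 in Mb (x axis), with the 387 other tested genes of chromosome 19 in light grey and Smarca2 as a diamond. The 16 members higher (red) and 14 lower (blue) at an unadjusted p under 0.05 lie on both sides of 0 along the same stretch; the height of Pkd2l1, with 0 WT reads, is a fitted value and no bound.

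Along the interval the genes with low p lay mostly in its first part. From 38 to 47 Mb, 26 of 100 members (26.0%) had an unadjusted p under 0.05, 32 had groups that did not overlap, and the median size of the change was 0.20 on the log2 scale. From 47 to 57 Mb there were 4 of 45 (8.89%), 6 without overlap and a median size of 0.13. The boundary at 47 Mb was set after the values had been seen. Signs ran together within some windows of 1 Mb and were mixed in others. In the window from 43 Mb, 6 of 13 members were higher and 0 lower at that p, 11 lay above 0 and the median log2 fold change was 0.24. From 42 Mb the count was 3 higher and 0 lower of 11. From 45 Mb it was 1 higher and 4 lower of 15, and from 46 Mb 0 higher and 3 lower of 21. Mixed windows were those from 38 Mb, with 1 higher and 1 lower of 6, and from 40 Mb, with 1 and 2 of 10. The window from 44 Mb held 2 higher and 1 lower of 13, and that from 56 Mb 1 and 1 of 6. From 47 Mb none of 16 members had a p under 0.05, and no member started between 48 and 52 Mb.

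**Figure D2:**
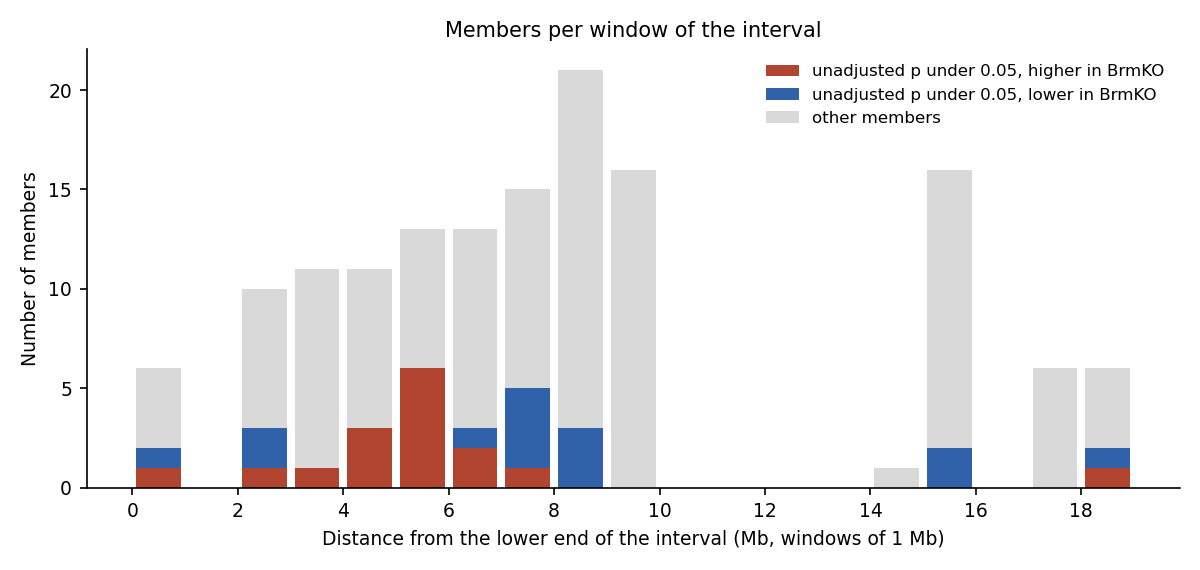
Number of members (y axis) in each 1 Mb window by distance from the lower end of the interval at 38 Mb (x axis), with those at an unadjusted p under 0.05 in red (higher in BrmKO) or blue (lower) and the others in grey. The window from 43 Mb holds 6 higher and 0 lower, and the windows from 45 and 46 Mb hold 4 and 3 lower.

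Mfsd13a, an orphan member of the major facilitator family of membrane transporters, fell (ENSMUSG00000025227.14, chr19:46341121-46375252, plus strand). Reads numbered 3158, 2871 and 2006 in WT and 934, 1099 and 949 in BrmKO, or 87.2, 88.3 and 70.5 CPM against 31.2, 38.3 and 27.6 CPM. Every BrmKO library lay far below every WT library. The mean was 82.0 ± 9.97 CPM in WT and 32.4 ± 5.44 in BrmKO (SD, n = 3 each), 39.5% of WT. The log2 fold change was -1.34 ± 0.14 (SE) with an edgeR adjusted p of 0.00766. With each library left out in turn the adjusted p ran from 0.008 to 0.075, and 3 of the 6 fits kept it under 0.05.

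Arl3 encodes a small GTPase that releases lipid-modified proteins into the cilium. It also fell (ENSMUSG00000025035.9, chr19:46531096-46573198, minus strand). Its reads were 489, 460 and 385 in WT and 154, 127 and 165 in BrmKO, or 13.5, 14.2 and 13.5 CPM against 5.15, 4.42 and 4.80 CPM. The spread within each group was small beside the gap between the groups. The mean was 13.7 ± 0.366 CPM in WT and 4.79 ± 0.362 in BrmKO (SD, n = 3 each), the log2 fold change -1.52 ± 0.17 (SE) and the edgeR adjusted p 0.00916. In the left-out fits the adjusted p was 0.031 to 0.085, under 0.05 in 2 of 6. Sfxn2, a mitochondrial carrier that starts 166 bp from Arl3 on the other strand, had 33 ± 4.4 CPM in WT and 27.8 ± 1.86 in BrmKO with overlapping groups and an unadjusted edgeR p of 0.0832.

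The promoters of these genes and of Bloc1s2, described further on, are shown because Mfsd13a and Arl3 were the members called lower and Bloc1s2 adjoins Pkd2l1, the member called higher. They are RefSeq sequences on GRCm38.p6 from 250 bases before to 50 after the annotated start, given 5′ to 3′ on the gene's strand, and capitals mark matches on either strand to 4 words, namely CCAAT, or GGGCGG, or CCGGAAG, or CACGTG. The RefSeq start of Mfsd13a lies downstream of the first GENCODE start. Pkd2l1 is named only.
Mfsd13a (chr19:46356630-46356929, plus strand): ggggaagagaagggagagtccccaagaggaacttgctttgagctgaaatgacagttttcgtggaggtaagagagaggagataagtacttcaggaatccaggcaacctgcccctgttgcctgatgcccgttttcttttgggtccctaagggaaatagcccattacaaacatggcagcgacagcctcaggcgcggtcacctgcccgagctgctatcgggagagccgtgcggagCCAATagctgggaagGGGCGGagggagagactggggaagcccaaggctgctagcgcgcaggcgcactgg
Arl3 (chr19:46573133-46573432, minus strand): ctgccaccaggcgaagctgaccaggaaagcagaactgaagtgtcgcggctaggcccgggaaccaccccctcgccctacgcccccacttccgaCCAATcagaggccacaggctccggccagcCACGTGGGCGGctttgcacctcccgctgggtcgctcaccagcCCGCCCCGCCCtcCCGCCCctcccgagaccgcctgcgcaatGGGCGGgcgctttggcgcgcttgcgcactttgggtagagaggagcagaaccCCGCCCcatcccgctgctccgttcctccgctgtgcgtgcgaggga
Bloc1s2 (chr19:44146397-44146696, minus strand): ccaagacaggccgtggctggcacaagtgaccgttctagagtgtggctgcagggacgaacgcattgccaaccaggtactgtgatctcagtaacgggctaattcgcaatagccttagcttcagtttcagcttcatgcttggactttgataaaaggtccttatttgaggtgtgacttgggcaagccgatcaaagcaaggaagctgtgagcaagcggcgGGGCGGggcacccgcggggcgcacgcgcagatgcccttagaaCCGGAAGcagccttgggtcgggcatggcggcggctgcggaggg

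These windows held 13, 29 and 20 CpG dinucleotides respectively. The Arl3 window held 6 matches to GGGCGG, 1 of which overlaps its CACGTG match, and 1 match to CCAAT. In the Mfsd13a window there was 1 match each to CCAAT and GGGCGG, and in that of Bloc1s2 1 match each to GGGCGG and CCGGAAG. RefSeq gave 148 promoters for 116 of the 145 members, and 32851 promoters in all. GGGCGG stood in 61.5% of the members' promoters and in 35.7% of all, CCAAT in 39.2% and 37.4%, CCGGAAG in 15.5% and 8.86%, and CACGTG in 7.43% and 7.15%. TATAAA, searched in the same way, stood in 6.08% and 13.6%, TGACTCA in 3.38% and 5.20%, TGTGGTT in 4.73% and 5.27%, and the NRF1 palindrome in 0.676% and 0.971%. The median number of CpGs was 21 in the members' promoters and 7 in all. A match in these windows describes letters and not a binding site, and the members are expressed genes while the whole table is not restricted to them.

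The annotated span of Mfsd13a holds other transcripts. GENCODE gives it 5 transcripts, of which one starts 15.8 kb before the next, with a first exon of 50 bp and 9 exons in all. Its first intron, from 46341171 to 46366310, contains the microRNA Mir146b (hairpin 46342762 to 46342870), a family known for damping innate immune signalling. The mature forms are shown because their hairpin lies within a member called lower, with the seed, bases 2 to 8, in capitals (RefSeq, GRCm38.p6).
mmu-miR-146b-5p (chr19:46342790-46342811, plus strand): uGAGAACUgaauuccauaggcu
mmu-miR-146b-3p (chr19:46342828-46342849, plus strand): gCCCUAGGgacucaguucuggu

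No exon of Mfsd13a overlaps the hairpin, and the hairpin had 0 reads over the 6 libraries. A polyadenylated RNA library does not capture mature microRNAs, so miR-146b was not measured here. In the same intron, on the other strand, lies 2310034G01Rik, which shares no exon with Mfsd13a. It is named here after its values were seen, and had 142, 110 and 108 reads in WT and 50, 33 and 35 in BrmKO. Its levels in the groups did not overlap (log2 fold change -1.53 ± 0.31 (SE), edgeR adjusted p 0.191). SMART-Seq libraries do not mark the strand, so its reads and those of unspliced Mfsd13a RNA cannot be told apart. The neighbours Cuedc2, 2418 bp away, and Actr1a, 1558 bp away, had log2 fold changes of -0.07 ± 0.08 and 0.03 ± 0.11 (SE).

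**Figure D3:**
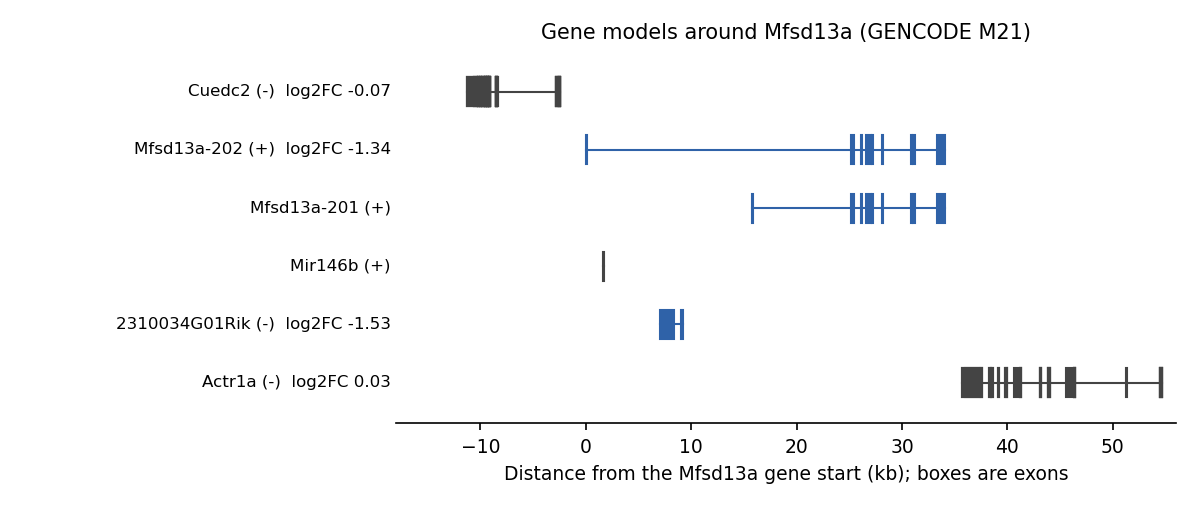
Exons (boxes) and introns (lines) of 2 Mfsd13a transcripts and neighbouring genes by distance from the Mfsd13a start in kb (x axis), with genes at a log2 fold change below -1 in blue and strands in brackets. Mir146b and 2310034G01Rik lie within the first intron of the transcript with the upstream start.

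Pkd2l1 encodes a cation channel of the polycystin family known from taste cells and from neurons in contact with cerebrospinal fluid. It rose (ENSMUSG00000037578.4, chr19:44147637-44192442, minus strand). No read was counted in any WT library, against 61, 42 and 36 reads (2.04, 1.46 and 1.05 CPM) in the BrmKO libraries. Taking 3 reads over the WT group as the floor, its level was at least 48.4-fold higher in BrmKO, with an edgeR adjusted p of 0.0365. It met the count rule through the BrmKO libraries alone, so it could be a member only by differing. The level stayed low in BrmKO too. With each library left out the adjusted p was 0.037 to 0.167 and under 0.05 in 1 of 6 fits.

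Bloc1s2 encodes a subunit shared by complexes that make lysosome-related organelles and that move lysosomes. Its start lies 1190 bp beyond the end of Pkd2l1 on the same strand (ENSMUSG00000057506.5, chr19:44139246-44146446, minus strand). Its level was 60.3, 55.7 and 67.4 CPM in WT and 92.5, 89.3 and 106 CPM in BrmKO, so the groups did not overlap. The mean was 61.2 ± 5.91 against 95.9 ± 8.88 CPM (SD, n = 3 each) and the log2 fold change 0.65 ± 0.11 (SE). The edgeR adjusted p was 0.0829, which missed the threshold, as did 0.0775 in edgeR with the library scaling of DESeq2. The DESeq2 test gave an adjusted p of 5.00e-05, but it called 0.715% of all genes against 0.14% with edgeR.

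Members were also grouped into role lists, chosen with earlier results of these data known, and no list was tested as a set. For the counts in this and the later lists, the share at an unadjusted p under 0.05 was 20.7% of all members and 5.85% of all genes. The lysosome-related list held 6 members, of which 5 lay above 0 (median log2 fold change 0.12), 0 were called and 2 were higher at an unadjusted p under 0.05. The second was Zfyve27 (protrudin), which links the endoplasmic reticulum to endosomes. Its levels were 104, 110 and 113 CPM in WT and 135, 135 and 118 CPM in BrmKO, without overlap (log2 fold change 0.25 ± 0.09 (SE), edgeR adjusted p 0.720). Hps1, a subunit of a lysosome-related organelle complex, had a log2 fold change of -0.06 ± 0.12 (SE).

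In the list of cilium and Hedgehog genes 8 were listed and 6 were members, 2 of them above 0, with a median log2 fold change of -0.10 and 2 lower at an unadjusted p under 0.05. Beside Arl3 this was Tctn3, a protein of the ciliary transition zone, with 34.9, 39.1 and 35.2 CPM in WT and 26.0, 31.1 and 27.9 in BrmKO. All BrmKO values lay below all WT values (log2 fold change -0.36 ± 0.11 (SE), edgeR adjusted p 0.605). Sufu, the suppressor of GLI factors in Hedgehog signalling, had a log2 fold change of -0.01 ± 0.11 (SE).

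Among 11 immune signalling genes, 5 lay above 0 (median -0.03), 0 were called, and at an unadjusted p under 0.05 there were 2 higher and 1 lower. Pik3ap1 (BCAP) is an adaptor that ties B cell and Toll-like receptors to phosphoinositide 3-kinase (ENSMUSG00000025017.10, chr19:41272377-41385102). It had 86.2, 78.3 and 79.4 CPM in WT and 115, 121 and 105 CPM in BrmKO. The groups stood apart, with a log2 fold change of 0.48 ± 0.09 (SE) and an edgeR adjusted p of 0.123.

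Entpd1 (CD39) is an ectoenzyme that breaks down extracellular ATP and ADP (ENSMUSG00000048120.16, chr19:40612366-40741602). It had 15.2, 16.1 and 21 CPM in WT and 29.8, 26.8 and 30.0 CPM in BrmKO. Again no WT library reached the BrmKO range (log2 fold change 0.73 ± 0.15 (SE), edgeR adjusted p 0.191). Btrc, an F-box protein of the ubiquitin ligase that marks IκB and β-catenin for degradation, was the lower one, with 58.7 ± 3.57 CPM in WT and 46.4 ± 2.25 in BrmKO (SD, n = 3 each; log2 fold change -0.34 ± 0.10, SE; edgeR adjusted p 0.491).

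Gsto1, a glutathione transferase of the omega class, had the highest WT level per kb of exon of all members, at 93.3 CPM per kb. Its level was 189 ± 6.89 CPM in WT and 185 ± 12.4 in BrmKO (SD, n = 3 each), and the log2 fold change was -0.03 ± 0.09 (SE). Dusp5, a phosphatase acting on ERK, was picked after its values were seen, for its wide variation within both groups. It had 133, 105 and 19.9 CPM in WT and 93.7, 34.9 and 23.5 CPM in BrmKO, and the groups overlapped.

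Markers of other cells that could pass the gate were summed per library. For 8 B lineage markers (Ighm, Cd79b, Ebf1 and others) the sums were 1365, 694 and 770 CPM in WT and 621, 632 and 699 in BrmKO. The ranges overlapped, 6 of 6 tested markers lay below 0 (median log2 fold change -0.45), 1 had an unadjusted p under 0.05 and 0 were called. Myeloid markers totalled 529 to 663 CPM in WT and 478 to 567 in BrmKO, with 8 of 8 below 0 and 0 at an unadjusted p under 0.05. Megakaryocyte markers totalled 669 to 894 CPM in WT and 445 to 619 in BrmKO, ranges that did not overlap. Of these, 7 of 7 tested lay below 0, 3 had an unadjusted p under 0.05 and Pf4 was called. Erythroid markers totalled 107 to 178 CPM in WT and 108 to 168 in BrmKO. For T and NK cells the sums were 231 to 264 CPM and 236 to 244 CPM, nearly all from Nkg7 (244 and 232 CPM), with Cd3e at 0. Of 6 tested T and NK markers 4 lay above 0 (median log2 fold change 0.34), and 1 had an unadjusted p under 0.05, Ncr1 at 2.22 ± 0.55 (SE). Their part in the members' values was not tested.

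In the DNA repair, replication and division list 10 members were found of 11 listed, 5 above 0 (median 0.01), 0 called, with 1 higher and 1 lower at an unadjusted p under 0.05. Cep55 is needed for the final cut between dividing cells (ENSMUSG00000024989.15, chr19:38055011-38074423). Its level was 48.5, 47.1 and 45.9 CPM in WT and 68.1, 71.6 and 63.7 CPM in BrmKO. The groups were far apart for their spread (log2 fold change 0.52 ± 0.09 (SE), edgeR adjusted p 0.102). Summed mitosis markers (Mki67, Top2a and others) had 1395 to 1483 CPM in WT and 1354 to 1592 in BrmKO, with a median log2 fold change of 0.05. Of 8 tested, 6 lay above 0 and 2 below, 1 had an unadjusted edgeR p under 0.05 and 0 were called. Their part in the level of Cep55 was not tested. Ccnj, a cyclin, had 13.0, 12.8 and 13.0 CPM in WT and 8.56, 8.15 and 10.5 CPM in BrmKO, without overlap (log2 fold change -0.51 ± 0.17 (SE), edgeR adjusted p 0.633). Smc3, a cohesin subunit, was at 0.04 ± 0.13 and Sfr1, a partner of recombination proteins, at -0.02 ± 0.10 on the log2 fold change scale (SE).

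Of 21 listed chromatin and transcription genes 16 were members, 5 above 0 (median -0.09), 0 called, with 1 higher and 2 lower at an unadjusted p under 0.05. Nkx2-3, a homeobox factor needed for spleen and gut vessels, had 19.7, 27.1 and 12.8 CPM in WT and 41.9, 35.3 and 38.4 CPM in BrmKO. The WT libraries varied more among themselves than the BrmKO libraries, yet the groups did not overlap (log2 fold change 0.95 ± 0.23 (SE), edgeR adjusted p 0.317). Mgea5 (Oga), the enzyme that removes O-GlcNAc from proteins, had 183, 212 and 192 CPM in WT and 161, 158 and 146 CPM in BrmKO. It was lower in each BrmKO library (log2 fold change -0.34 ± 0.09 (SE), edgeR adjusted p 0.434). Cwf19l1, related to a splicing factor, had overlapping groups at a log2 fold change of -0.26 ± 0.12 (SE). Ldb1, a cofactor of LIM-domain and GATA complexes in blood cells, was at 0.06 ± 0.09 (SE).

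The mitochondrial list held 10 members of 12 listed, 6 above 0 (median 0.01), 0 called, with 2 higher and 1 lower at an unadjusted p under 0.05. The higher ones were Bloc1s2, which is also in the lysosomal list, and Got1, which is the cytosolic form of aspartate aminotransferase. Got1 had 36.2, 35.3 and 27.5 CPM in WT and 41.9, 51.0 and 43.7 CPM in BrmKO. Its groups did not overlap (log2 fold change 0.46 ± 0.14 (SE), edgeR adjusted p 0.520). The lower one was Mrpl43, a protein of the mitochondrial ribosome, with 9.66 ± 1.02 CPM in WT and 7.03 ± 0.947 in BrmKO (SD, n = 3 each), of whose exon length 33.4% is shared with Twnk on the other strand. Aldh18a1, an enzyme of proline synthesis, had a log2 fold change of -0.15 ± 0.11 (SE).

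Channels, receptors and transporters gave 8 members of 18 listed, 5 above 0 (median 0.14), 2 called (Pkd2l1 and Mfsd13a), with 2 higher and 1 lower at an unadjusted p under 0.05. Entpd7, an intracellular relative of Entpd1, had 17.1, 15 and 14.7 CPM in WT and 20.6, 19.5 and 20.7 CPM in BrmKO. The ranges were separate (log2 fold change 0.37 ± 0.13 (SE), edgeR adjusted p 0.706). Calhm2, a large-pore channel, had a log2 fold change of 0.04 ± 0.14 (SE).

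In the lipid list 8 members were found of 13 listed, 6 above 0 (median 0.03), with 0 called and 0 at an unadjusted p under 0.05. Scd2, a desaturase that makes monounsaturated fatty acids, had 261, 269 and 273 CPM in WT and 316, 271 and 310 CPM in BrmKO. Its ranges overlapped (log2 fold change 0.16 ± 0.09, SE). Acsl5, which activates long-chain fatty acids, was at 0.04 ± 0.09 (SE). Membrane traffic gave 9 members of 14 listed, 4 above 0 (median -0.02), with 0 called and 1 higher at that p. This was Armh3, with 23.7 ± 3.17 CPM in WT and 29.2 ± 1.15 in BrmKO (SD, n = 3 each). Tm9sf3, a membrane protein of the secretory pathway, had 450 ± 44.3 CPM in WT and 423 ± 40.5 in BrmKO (SD, n = 3 each).

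The cytoskeleton and adhesion list held 14 members of 16 listed, 5 above 0 (median -0.10), 0 called, with 1 higher and 2 lower at an unadjusted p under 0.05. These had few reads. Nrap, an anchoring protein of striated muscle, had 12, 18 and 13 reads in WT and 121, 90 and 36 in BrmKO (log2 fold change 2.61 ± 0.54 (SE), edgeR adjusted p 0.194). Rbm20, a splicing regulator of heart muscle, had 17, 30 and 59 reads in WT and 1, 7 and 3 in BrmKO. The latter were at or near the limit of detection (log2 fold change -3.22 ± 0.82 (SE), edgeR adjusted p 0.350). Afap1l2, an adaptor of the SRC and phosphoinositide kinase pathways, had 138, 32 and 62 reads in WT and 1, 0 and 13 in BrmKO (log2 fold change -3.98 ± 0.96 (SE), edgeR adjusted p 0.318). For all 3 genes the groups did not overlap. Without replicate 3 of both groups the log2 fold change of Afap1l2 was -6.84, that of Rbm20 -2.30 and that of Nrap 3.02, and Rbm20 met the count rule through WT alone. Stromal and endothelial markers (Pdgfra, Kdr, Cdh5 and others) totalled 377, 244 and 202 CPM in WT and 205, 196 and 249 in BrmKO. Of these markers 8 of 9 lay below 0 (median log2 fold change -1.43), 4 had an unadjusted edgeR p under 0.05 and 0 were called. Pdgfra had 27, 19 and 21 reads in WT and 0 in each BrmKO library. The sums hide part of this, since the 1 marker above 0, Col1a1, had 530, 67 and 1996 reads in BrmKO. The part of stromal and endothelial cells in these genes was not tested. The placeholder Gm16299 lies inside Rbm20 on the other strand and had 150, 137 and 435 reads in WT and 4, 70 and 6 in BrmKO. Its reads and those of unspliced Rbm20 RNA cannot be told apart without strand marks.

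The remaining 51 members belong to none of these lists. Of them 27 lay above 0 (median 0.02), 0 were called, and 5 were higher and 4 lower at an unadjusted p under 0.05. Fra10ac1, named after a fragile site, had 29.2, 34.8 and 29.8 CPM in WT and 15.5, 21.3 and 21.3 CPM in BrmKO, without overlap (log2 fold change -0.69 ± 0.15 (SE), edgeR adjusted p 0.238). Morn4, a protein of MORN repeats, had 5.0, 8.71 and 5.87 CPM in WT and 12.8, 16.3 and 12.3 CPM in BrmKO. It was higher in each BrmKO library (log2 fold change 1.08 ± 0.24 (SE), edgeR adjusted p 0.226). Kazald1, a secreted protein with a Kazal-type domain, had 1.64 ± 0.674 CPM in WT and 0.655 ± 0.196 in BrmKO (SD, n = 3 each; edgeR adjusted p 0.716).

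Of the 30 members with an unadjusted p under 0.05, 6 had placeholder names, 4 higher and 2 lower, and those given here were picked after their values were seen. AC125458.1, antisense within Pyroxd2, had 0 reads in every WT library and 14, 16 and 17 in BrmKO. It was at least 16.4-fold higher by the 3-read floor over the group (edgeR adjusted p 0.117), and it too met the count rule through BrmKO alone. Because the libraries do not mark the strand, its reads and those of unspliced Pyroxd2 RNA cannot be told apart. AC138790.1, which lies 296 bp from Slc25a28, had 4.20 ± 0.923 CPM in WT and 10.3 ± 0.816 in BrmKO (SD, n = 3 each; edgeR adjusted p 0.0928). Gm20467, which lies 1699 bp from Nkx2-3, had 4.66 ± 0.556 CPM in WT and 9.37 ± 1.96 in BrmKO (SD, n = 3 each; edgeR adjusted p 0.238). Over all 145 members, 54 share exon sequence with another gene and 3 have a near-identical copy. Among the 30, 7 share exon sequence and 0 have a copy.

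**Figure D4:**
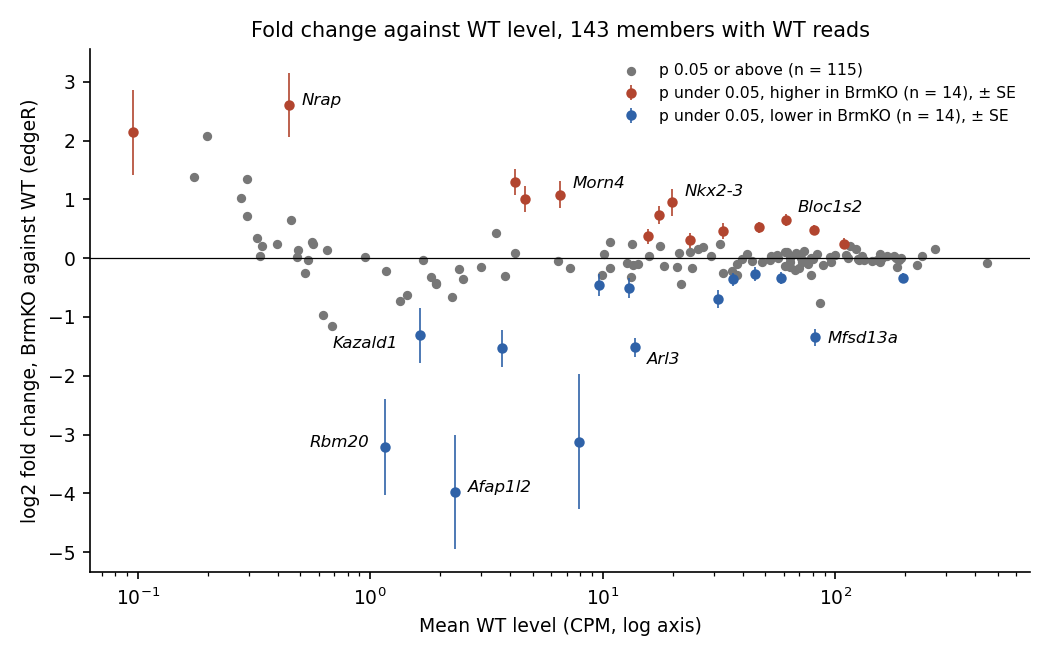
Log2 fold change (y axis, ± SE for members with an unadjusted p under 0.05) against mean WT level in CPM (x axis, log scale) for the 143 members with WT reads; red is higher and blue lower in BrmKO. Rbm20 and Afap1l2 have log2 fold changes of -3.22 and -3.98 at low levels, while Mfsd13a stands at 82.0 CPM and Arl3 at 13.7 CPM.

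The members covered a wide range of levels. In 125 of the 145 every library had at least 10 reads, and 24 of these had an unadjusted p under 0.05. The share over all genes with at least 10 reads in every library is not given here, so this count has no matching background. The count rule was met through BrmKO alone by 3 members and through WT alone by 1. In WT the mean was at least 100 CPM in 25 members, 10 to 100 CPM in 70, 1 to 10 CPM in 26 and under 1 CPM in 24, with a median of 25.8 CPM. The median coefficient of variation was 11.5% in WT and 10.7% in BrmKO. At the count rule's edge, Abcc2 had 15, 11 and 32 reads in WT and 11, 11 and 7 in BrmKO and was kept, as was Col17a1 with 0, 1 and 14 against 10, 19 and 11 reads. Hoga1, with 0, 1 and 8 against 8, 9 and 12 reads, was left out. Just beyond the ends of the interval, Myof had a log2 fold change of -0.45 ± 0.20 and Ablim1 of -0.08 ± 0.13 (SE).

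The calls depended on the test and on the libraries. With DESeq2, which called 0.715% of all genes, 17 members were called, 11 higher and 6 lower, among them all 7 of Mfsd13a, Arl3, Pkd2l1, Bloc1s2, Pik3ap1, Entpd1 and Cep55. Without the low-count filter edgeR called 0.207% of all genes and 8 members. Without WT replicate 3 it called 0.221% of all genes and 4 members, Bloc1s2 at an adjusted p of 0.0490 among them. Without the third libraries of both groups, which had the largest shares of reads outside genes, Mfsd13a alone of the 3 passed, while Arl3 had an edgeR adjusted p of 0.0620 and Pkd2l1 of 0.0644. The log2 fold change of Arl3 was -1.53 there, against -1.52 with all libraries, and Pkd2l1 still had 0 WT reads. The number of members called was 0 without WT replicate 1, without WT replicate 2 or without BrmKO replicate 1, and 1 without BrmKO replicate 2.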

How the data were processed

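Reads were counted per gene, and whole-number counts for 6 libraries were deposited by the authors, without normalization; the submitters' processing notes list STAR, HTSeq and DESeq2 and GRCm38. The sources used here state neither strand setting nor annotation release. The 5 rows that name no gene were left out of library sizes, among them reads outside genes (5.79% to 9.29%), ambiguous reads (6.23% to 6.47%) and reads placed more than once (4.38% to 5.27%). Gene IDs were matched to GENCODE M21 coordinates, and near-identical copies were searched with minimap2 2.31. WT and BrmKO were compared with edgeR 4.0.16 (TMM, filterByExpr, robust quasi-likelihood test, Benjamini-Hochberg over all 15691 genes) in R 4.3.3; limma 3.58.1 (voom) and DESeq2 1.42.0 were alternatives. All 145 members passed that filter. The SE printed with a log2 fold change was computed back from the statistic of the edgeR test and is no independent estimate. The script was tested on simulated data. CPM uses TMM-scaled library sizes; no molecular identifiers were used, so counting limits cover counting error only. Each library is labelled as a separate sample; p-values measure the spread between these 3 and 3 samples.

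The members, the role and marker lists and the interval were chosen with earlier results of these data known. Genes named are 7 given genes, up to 12 per direction by smallest unadjusted p under 0.05, the 2 highest WT levels per kb in each role list, the coding neighbours of Mfsd13a, Arl3 and Pkd2l1, and genes at the edges of the interval and of the count rule; placeholder names are counted, and those named were picked after their values were seen. Dusp5, Crtac1, Golga7b and Pdzd7 fall outside this naming rule and were also picked after their values were seen. Alternatives changed scaling, filter, test, interval, count rule and libraries.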

Additional observations from a re-analysis of the deposited data

How the results depend on the processing

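The number of genes called was 22 in the report and 141 with DESeq2 (0.715% of 19733). It was 21 with limma-voom (0.134% of 15691), 58 without the low-count filter (0.207% of 28019), and 6 to 36 with 1 library left out. Of members, 17 were called with DESeq2 (11 higher, 6 lower), 8 without the filter (6 higher), 4 with limma-voom (2 higher), 2 with at least 50 reads required (0 higher), 1 (0 higher, 1 lower) without replicate 3 of both groups, and 0 to 4 with 1 library left out (0 to 2 in each direction). Members at an unadjusted p under 0.05 numbered 23 to 33 over all alternatives. These settings differ in the members and libraries they hold, and the matching shares over all genes are not given here. The range is therefore no measure of stability. Groups that did not overlap were found in 38 members, in 36 to 39 under other scalings, in 43 to 58 with 1 library left out of the 145 (all genes 17.7% to 26.4%) and in 83 without replicate 3 of both groups (57.2%, all genes 40.8%); no value exists for the other tests and filters, which leave the levels as they are. The other settings gave counts within 1.5 times of those reported. Of 616 values of 44 named members under 14 settings, 0 called values changed sign, and values near 0 such as that of Lzts2 (-0.07, and 0.09 without WT replicate 2) did. The settings without replicate 3 of both groups and without members that share exons or have a copy were added after seeing the data. The latter setting gave 23 members at an unadjusted p under 0.05. Because 54 of the 145 members share exons and 3 have a copy, it holds fewer members. Its count therefore cannot be set against the 30 of 145. Same-numbered libraries correlated at 0.0518, 0.00775 and 0.194, and BrmKO replicate 1 correlated best with WT replicate 2, so the numbers were not taken to pair the samples. The counts of both replicates 3 differed less from each other (chi-square per degree of freedom 20.5) than from their own groups (32.0 to 48.7). With a replicate block 25 genes and 3 members were called; Pkd2l1 had an edgeR adjusted p of 0.0759 and Bloc1s2 of 0.0251. Depth limits the 24 members under 1 CPM in WT most, since 3 reads are the limit of detection.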

Other observations

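Some genes of the interval that missed the count rule had reads in 1 group only. Crtac1, a secreted cartilage protein, had 0 reads over the WT libraries and 24 over the BrmKO libraries, and Golga7b had 0 and 7. Pdzd7, a protein of hair-cell stereocilia, had 13 reads in WT and 0 in BrmKO. These genes were chosen after their values were seen, and no test was made of them.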
